A study of Saccharomyces cerevisiae with 12 samples.

Results

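Nascent transcription was compared between yeast cells kept in Congo Red for 240 min and the same culture conditions at 0 min. The comparison took the 3 genomic run-on arrays of each time, 6 arrays of the 36 in the series and 2 of its 12 samples. A spot of the array was a member when at least 2 of its 3 values were above 0 at both times, which left 5145 of 6144 spots. The cells were Saccharomyces cerevisiae BY4741, labelled wild type, grown at 24 °C in rich medium with glucose. All groups used here came from that strain and medium. The 0 min sample was the reference taken when the dye was added at 30 µg/ml, which the labels call sublethal, and the other was collected 240 min later in its presence. No sample without the dye after 0 min was analysed here, so an effect of the dye and an effect of time in culture cannot be told apart. The labels do not say whether the 3 arrays of a time came from separate cultures, and the p-values rest on array-to-array spread alone, part or all of which may be technical.

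Congo Red is a dye with affinity for chitin, and it interferes with how yeast builds its cell wall. Wall damage is sensed at the plasma membrane and passed through protein kinase C and a MAP kinase cascade, the cell wall integrity pathway, which switches on transcription of wall-building genes. In genomic run-on, cells are permeabilised and polymerases already engaged on a gene extend their transcripts with radioactive UTP, so the signal of a spot follows how many polymerases were transcribing it, apart from how much mRNA had accumulated. The cells were larger late in the course, per the design text, and the study expressed transcription per cell volume as a synthesis rate, using a volume factor of 1.65 at 240 min and of 1 at 0 min. The files and the reference table used here do not pair spots with genes: 0 of the 6144 spot identifiers matched any of 6477 yeast genes. Genes of the wall integrity pathway therefore could not be followed, spots are given by their place on the array (row and column of the block, then the printing position within it), and no sequence is shown.

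Total intensity ran from 540338 to 1091297 on the 0 min arrays and from 1044511 to 1848588 on the 240 min arrays, a difference that an exact two-sided permutation test over 3 against 3 arrays did not separate (p = 0.2, where 0.1 is the smallest it can give). On each array 14.9% to 16.1% of spots had a value of 0. Of the spots left out, 794 were at 0 on all 6 arrays. The 110 members with a missing value had a median signal at percentile 2.77 of the array and the 46 spots just outside the rule, with 1 value in a group, one at percentile 1.77, against 50.5 for all members. Across spots the arrays did not sort by time: log2 signals correlated at 0.917 to 0.963 within 0 min, at 0.897 to 0.947 within 240 min, and at 0.890 to 0.961 between the times. Among the 18 array weights estimated by limma the lowest was 0.380, for replicate 1 at 240 min, followed by 0.449 for replicate 1 at 60 min and 0.577 for replicate 1 at 0 min. The last of these had the lowest correlations between the times, 0.890 and 0.899, with replicates 3 and 2 at 240 min. Call counts, the spots named below, the share held by the brightest spots and the share of risers called in mRNA are also given without replicate 1 at 240 min.

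Changes are relative to the typical spot, because the arrays were quantile normalised, and were tested in limma with all 18 nascent arrays in the fit. At 240 min nascent transcription had risen at 38 spots and fallen at 4, of 5145 tested (limma adjusted p under 0.05), 0.739% and 0.0777% of the spots. The risers had changed by between 1.62-fold and 5.03-fold with a median of 2.66-fold, and the fallers by between 1.88-fold and 2.63-fold with a median of 2.41-fold. On all 42 called spots the 3 arrays at 240 min lay on 1 side of the 3 arrays at 0 min. That separation alone was common. It was seen upward at 377 spots, which is 7.33% of those tested, and downward at 343, which is 6.67%.

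Most members lay close to the typical change. The quartiles over all of them were -0.24 and 0.22 (log2 change), and the SD over spots was 0.48, with a median standard error of 0.25 for a single spot. A change beyond 2-fold was measured upward at 134 spots (2.6%) and downward at 77 (1.5%), of which 30 and 3 passed the test. Under an unadjusted limma p of 0.05 there were 391 spots above their 0 min level and 256 below it, a more even balance of directions than among the calls.

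**Figure D1:**
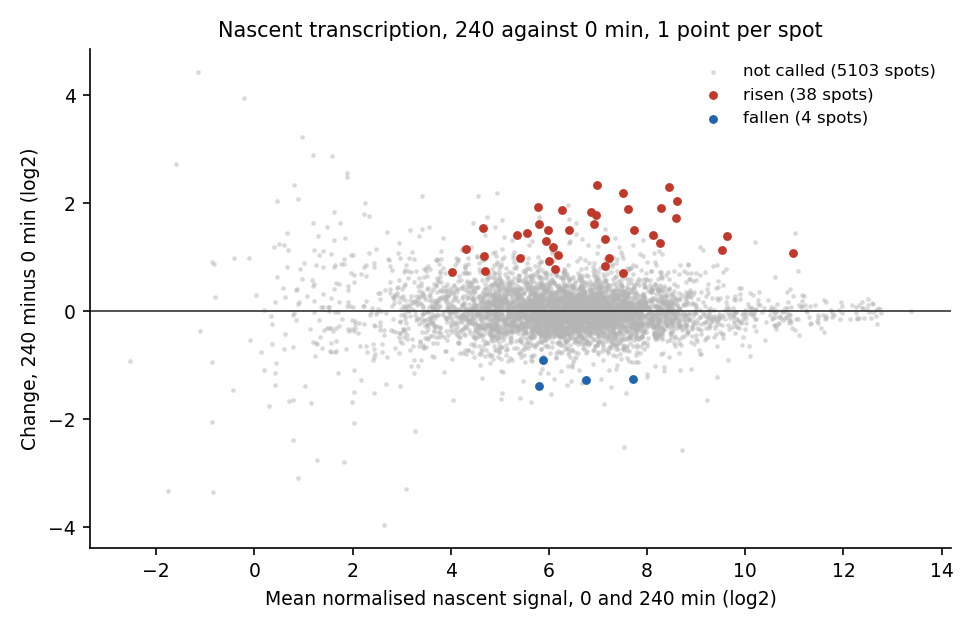
Log2 change in nascent signal from 0 to 240 min (vertical axis) against the mean of the normalised log2 signals of both times (horizontal axis), 1 point per spot. The 38 risen spots are red and stood at percentiles 7.79 to 97.8 by signal at 0 min. The 4 fallen spots are blue, and grey points with larger changes at low signal did not pass the test.

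Called spots were not the dimmest ones. The risers stood at percentiles 7.79 to 97.8 of the members by signal at 0 min, with a median of 36.9, and their median percentile at 240 min was 80.3. The 4 fallers started higher, at a median percentile of 64.1, and ended at 34.9. These percentiles come from the arrays that chose the spots, so the direction of the shifts was set by that choice. Called spots were spread over the array, with the 38 risers in 36 of its 384 blocks and at 15 of its 16 printing positions.

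The spot R14 - C10 : 16 had the largest rise among the called spots. At 0 min its normalised log2 signals were 5.48, 5.94 and 6.01, and at 240 min they were 7.24, 8.81 and 8.36. The groups did not overlap, and replicate 1 was the lowest array of the 3 at 240 min. The change was 2.33 ± 0.49 (SE) on the log2 scale, or 5.03-fold (limma adjusted p = 0.0354). Leaving out 1 of the 6 arrays at a time gave changes of 1.99 to 2.77, and the adjusted p in limma rose to between 0.0636 and 0.161 in 5 of these 6 cases. The mRNA of the same spot, measured on other arrays, had risen by 3.60 ± 0.24 (SE, log2) at 240 min (limma adjusted p = 2.05e-06).

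R15 - C1 : 7 was the next largest. Its log2 signals were 7.04, 7.37 and 7.49 at 0 min and 9.59, 9.05 and 10.13 at 240 min, so that every late array lay more than 1 log2 unit above every early one. The change was 2.29 ± 0.33 (SE), or 4.90-fold (limma adjusted p = 0.00352). It passed the test whichever single array was left out. Its log2 change from 0 min was 0.09, 1.07, 2.39 and 2.73 at the 4 earlier times in order, and the last 2 of these passed (limma adjusted p = 0.00277 and 0.000521). In the authors' deposited table its synthesis rate was 0.135 at 0 min and 0.402 at 240 min, a ratio of 2.99 that was the highest of the 4803 spots with a value at both times. Its mRNA had risen by 2.42 ± 0.49 (SE, log2) at 240 min (limma adjusted p = 0.022).

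Among the falls, R13 - C19 : 3 was the largest. Its log2 signals were 6.09, 6.37 and 7.04 at 0 min and 5.13, 4.73 and 5.44 at 240 min, and the groups did not overlap. The change was -1.39 ± 0.29 (SE) (limma adjusted p = 0.035). The spot lies at printing position 3, whose 336 members had a median change of -0.29, while the medians of the other positions lay between -0.09 and 0.07. With each printing position centred the change was -1.11 (limma adjusted p = 0.0842) and no longer passed. Leaving out either of replicates 2 and 3 at either time also took its limma adjusted p above the threshold, to between 0.0591 and 0.158.

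R4 - C20 : 4 had log2 signals of 7.62, 7.21 and 7.34 at 0 min and 5.76, 6.22 and 6.37 at 240 min. All 3 late values lay below all 3 early ones, and the change was -1.28 ± 0.16 (SE) (limma adjusted p = 0.00123). Its mRNA was 0.22 ± 0.38 (SE, log2) from 0 min (limma adjusted p = 0.963), so no mRNA fall was measured at this spot, and the test of the difference between the assays did not pass either (limma adjusted p = 0.404). When replicate 1 at 240 min was left out, this spot changed by -1.10 (limma adjusted p = 0.0025). In the same fit R14 - C10 : 16 changed by 2.77, R15 - C1 : 7 by 2.29 and R13 - C19 : 3 by -1.41 (limma adjusted p = 0.00927, 0.00688 and 0.0386).

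**Figure D2:**
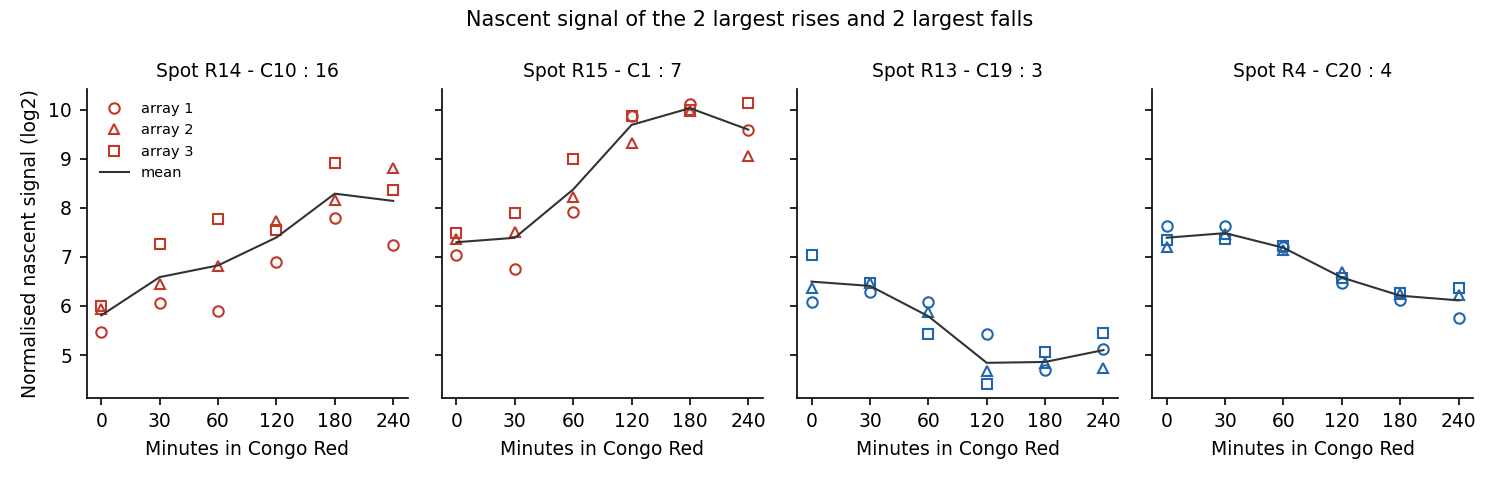
Normalised nascent log2 signal (vertical axis) against minutes in Congo Red (horizontal axis, times evenly spaced) for the 2 largest rises and the 2 largest falls among the called spots. Each symbol is 1 array and the line joins the means of the 3 arrays; at 240 min all 3 symbols lie above or below all 3 at 0 min in each panel.

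The counts of calls depended on the processing and on single arrays. With only the 6 arrays of 0 and 240 min in the fit, 0 spots passed in limma, with a smallest adjusted p of 0.0833. Of the 5145 tested, 406 lay under an unadjusted limma p of 0.05, more than the share this threshold passes when nothing changed. Without replicate 1 at 240 min, 86 spots rose and 57 fell, among them 35 of the 38 risers and all 4 fallers. Without replicate 2 at 0 min 16 rose and 2 fell. Omitting replicate 2 at 240 min left 18 rises and 1 fall, and omitting replicate 3 at that time left 13 rises and 2 falls. Array weights, which count replicate 1 at 240 min least, gave 122 rises and 57 falls. With each printing position centred 60 spots rose and 12 fell, and with the file number as a replicate block 109 rose and 35 fell.

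**Figure D3:**
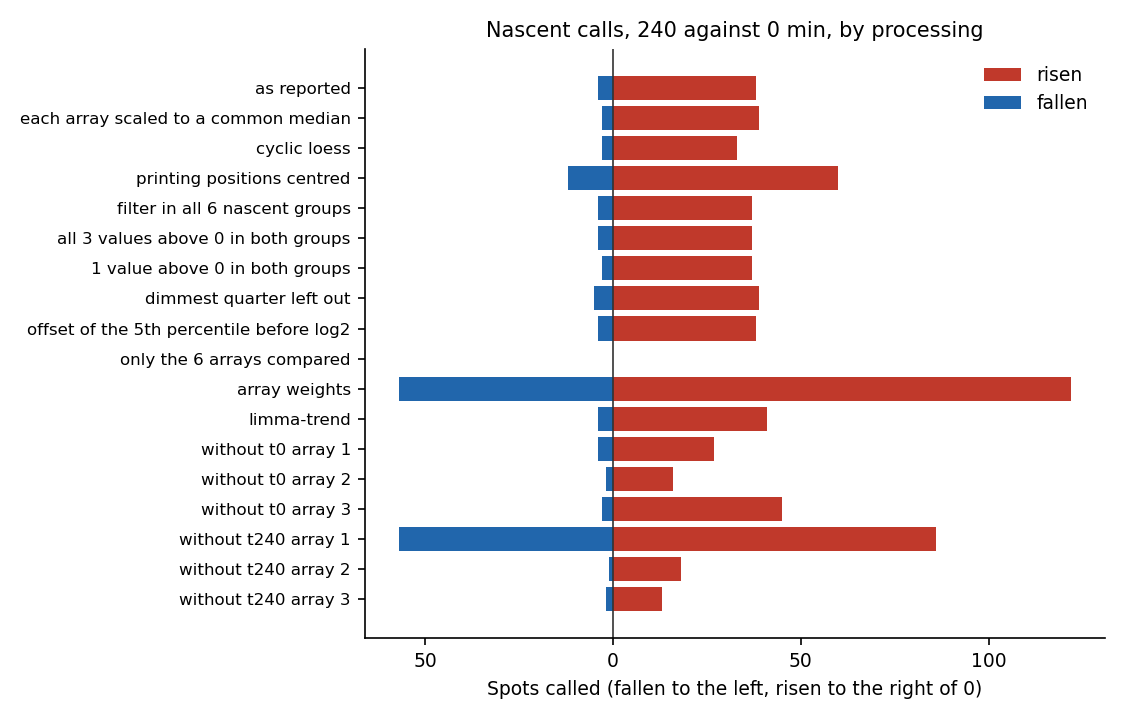
Number of spots called risen (red, to the right of 0) and fallen (blue, to the left) at 240 against 0 min, by processing, named on the vertical axis. The replicate block, with 109 risen and 35 fallen, is not drawn. Among the settings drawn, bars are longest for array weights and without array 1 at 240 min, with 57 fallen spots in both. The fit to only the 6 arrays compared has no bar because it called 0 spots.

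Taking the difference between the arrays of the same file number gives 3 estimates of the change. The labels do not say that a file number links arrays of different times, so this pairing is arbitrary. The median for the 38 risers was 1.21, 1.58 and 1.34 (log2) for numbers 1, 2 and 3, on the arrays that chose them. Over all members these estimates shared little. Their changes correlated across spots at 0.03 for numbers 1 and 2, at 0.30 for 2 and 3 and at 0.31 for 3 and 1. These values are across 5145 spots of the same 6 arrays and carry no p.

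The late state was also set against the intermediate times, without the 0 min arrays entering the contrast. Between 180 and 240 min 0 spots passed in limma (0%). Of 5144 tested, 73 lay under an unadjusted limma p of 0.05, fewer than the share this threshold passes when nothing changed. The other scalings and the omission of any 1 of the 6 arrays of 0 and 240 min gave 0 calls as well. Against 120 min 1 spot rose and 0 fell, a rise at 0.0194% of the spots. Against 60 min 1 rose and 1 fell, and against 30 min 5 rose (0.0972%) and 1 fell (limma adjusted p under 0.05). The median size of the change over all spots was 0.15, 0.13, 0.17 and 0.21 (log2) against 180, 120, 60 and 30 min, and 0.23 when the reference was 0 min. A p that misses the threshold does not show that the late times were alike.

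The 38 risers had departed from 0 min before 240 min. Their median nascent change was 0.40, 0.77, 1.22, 1.34 and 1.41 (log2) at the 5 times in order. At 60 min and later all 38 lay above 0 min. Counts of these spots called risen in their own right before 240 min were 1, 2, 25 and 32 in the order of the times, where 0.0194%, 0.0389%, 0.758% and 1.03% of all spots were called risen. All of these contrasts use the same 0 min arrays, which also served to choose the 38. The 4 fallers had median changes of 0.0032, -0.40, -0.88, -1.003 and -1.27 in the same order.

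Whether the risers also changed in mRNA abundance was read on the 18 mRNA arrays, which took no part in choosing them. Of the 38 risers 37 were measured there, and 14 of these had risen in mRNA at 240 min (limma adjusted p under 0.05), which is 37.8% of them, while 1.29% of 4973 spots were called risen in mRNA. Of the 37, 35 had an mRNA change above 0, where 48.4% of all spots did. Their median mRNA change was 1.03 (log2), and it ranged from -0.43 to 3.60. Seen from the mRNA side, the 14 were 21.9% of the 64 spots with raised mRNA. The median nascent change was 1.68 for the 14 and 1.38 for the 23 measured risers that were not called in mRNA.

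The mRNA of the risers had a median change of 0.22, 0.39, 1.04 and 0.92 (log2) at the 4 earlier times in order. Of the 37, counts of 0, 3, 11 and 15 were called risen in mRNA at these times, where the share of all spots called risen was 0%, 0.101%, 0.644% and 1.35%. The 4 fallers had a median mRNA change of -0.82 at 240 min and 0 of them was called, where 0.282% of all spots were called lower. One of the 4 had a value above 0. The share of risers called in mRNA was lower in the longer lists of risers that other settings gave. It was 27.6% (16 of 58) for the risers found with printing positions centred, 21.2% (18 of 85) for those found without replicate 1 at 240 min, and 18.8% (22 of 117) for those found with array weights.

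**Figure D4:**
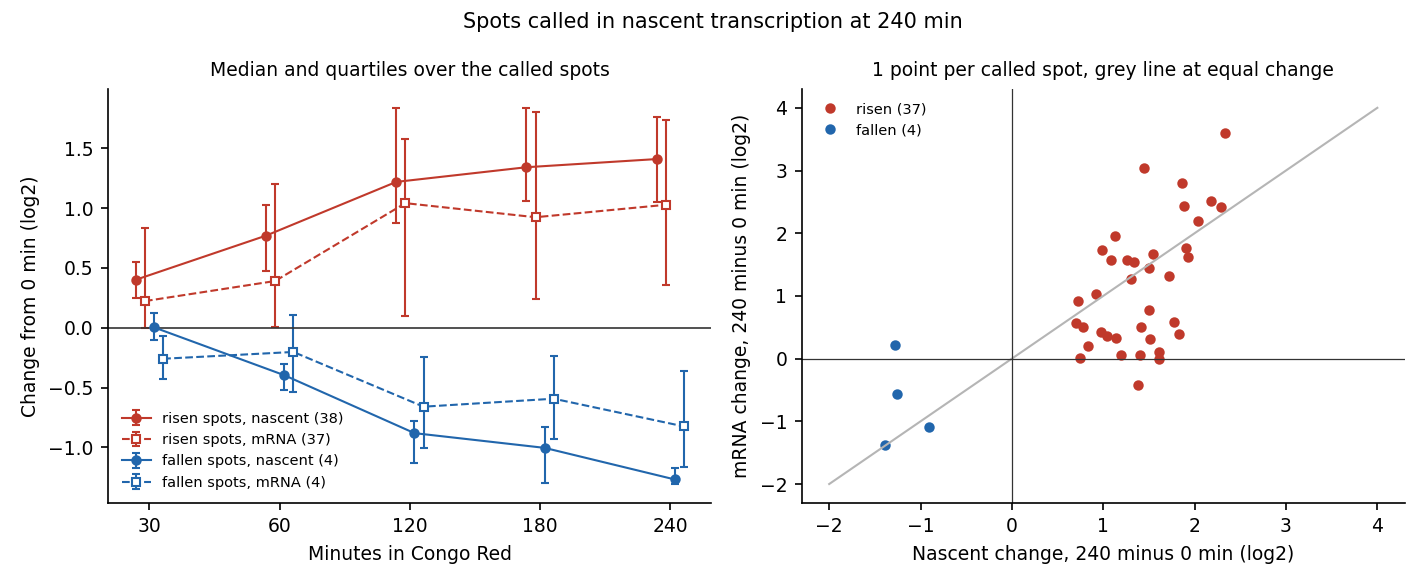
Left, median log2 change from 0 min with quartiles as bars, by minutes in Congo Red, for the 38 risen and 4 fallen spots in nascent signal (filled, solid) and in mRNA (open, dashed). Right, mRNA change against nascent change at 240 min for each of these spots, where 35 of 37 risen spots have mRNA above 0 and the grey line marks equal change.

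The difference between the nascent and the mRNA change at 240 min was put to an interaction test that used all 36 arrays. It passed at 2 of 4879 spots (limma), 0.041% of them. Under an unadjusted limma p of 0.05 there were 236, close to the share that this threshold passes when nothing changed. One of the 2 was among the risers, with a nascent change of 1.61 (log2) and an mRNA change of -0.01. The other had an mRNA change of 2.28 and a nascent change of 0.13. These changes are from the unweighted fit of each assay. The test itself used array weights and gave differences of 1.77 and -2.25. Over the 4879 spots the changes in the assays correlated at Pearson's r = 0.44 and Spearman's rho = 0.46, a description across spots that have no arrays in common between the assays.

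Levels, as opposed to relative changes, can be read only in the authors' deposited table, where replicates had been combined and no spread is given. It held a synthesis rate at both 0 and 240 min for 4803 spots, all of them members. The ratio of 240 over 0 min in the authors' deposited table had a median of 0.571, with quartiles of 0.482 and 0.678. It was above 1 at 215 spots, or 4.48%, above 2 at 17, and under 0.5 at 1417, or 29.5%. Of the 2346 spots whose nascent signal on the arrays was above its relative level at 0 min, 2126 had a ratio under 1 in the authors' deposited table.

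Multiplying by the volume factor of 1.65 undoes the division by volume that the design text describes. The median ratio in the authors' deposited table was then 0.942, with quartiles of 0.795 and 1.12, and 1962 spots, or 40.8%, stood above 1. Beyond 2 there were 97 spots and under 0.5 there were 88. The sum of all synthesis rates was 0.584 of its 0 min value per volume and 0.963 with the volume factor. At the intermediate times the median with the factor was 0.995, 0.944, 0.940 and 0.855 in the order of time in the authors' deposited table, so the value at 240 min lay above that at 180 min.

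The called spots are placed on this scale as follows. The risers with a table value, 37 of 38, had a median ratio of 1.56 in the authors' deposited table, from 0.884 to 2.99, and 32 of the 37 were above 1 even per volume. With the volume factor their median was 2.57 and the lowest was 1.46. At 120 and 180 min the same spots had medians of 1.82 and 1.61 per volume in the authors' deposited table, both above that at 240 min, and of 2.13 and 2.32 with the factors of 1.17 and 1.44 for those times, both below it. The 4 fallers had ratios of 0.217 to 0.304 per volume and of 0.358 to 0.501 with the factor. The risers made up 0.713% of the summed synthesis rate at 0 min and 1.86% at 240 min, and the fallers 0.0961% and 0.0393%. The table's log2 ratios correlated with the changes on the normalised arrays at 0.875 across the 4803 spots, and both come from the same arrays.

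**Figure D5:**
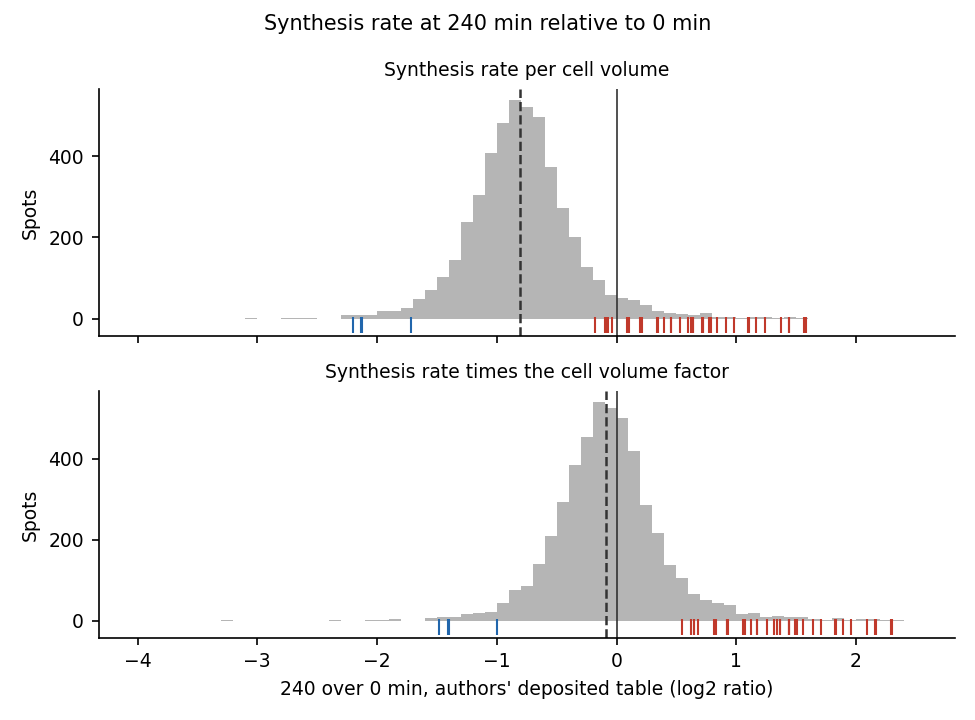
Distribution over 4803 spots of the log2 ratio of synthesis rate, 240 over 0 min, in the authors' deposited table (number of spots on the vertical axis), per cell volume above and multiplied by the volume factor of 1.65 below. The dashed lines mark the medians, 0.571 and 0.942 as ratios, the solid lines mark no change, and ticks under the bars are the called spots, risen in red and fallen in blue.

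The relative change was also read against how strongly a spot was transcribed. Spots were put in 5 equal classes of 1029 by mean nascent signal at 30 to 180 min. By class, the median change at 240 min lay between -0.04 and 0.01 (log2). Quantile normalisation gives all arrays the same distribution of signals, which by itself draws these medians toward 0. With a common median instead, the brightest class changed by 0.051. Ranked by mRNA at 0 min, the class medians went from 0.064 in the dimmest to -0.084 in the brightest. The median ratio of synthesis rates per volume lay between 0.565 and 0.588 in the classes ranked by nascent signal. Classes differed in spread: a change beyond 2-fold in either direction was measured at 9.23% of the dimmest class and at 1.85% to 3.79% of the others, and the median standard error was 0.39 in the dimmest class and 0.21 to 0.26 in the others.

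A change in how transcription was shared among spots was not detectable with 3 arrays a side. The brightest 1% of the spots of an array, 61 spots, held 24.99% ± 3.9 (SD, n = 3) of the intensity at 0 min and 26.7% ± 2.7 (SD, n = 3) at 240 min. By array these shares were 28.9%, 21.1% and 25.1% at 0 min and 29.9%, 25.5% and 24.8% at 240 min, and the groups overlapped (exact two-sided permutation test p = 0.5, smallest possible 0.1). The brightest 5% held 48.7% ± 3.6 and 51.0% ± 3.2 (SD, n = 3), with an exact permutation p of 0.6, and the brightest 10% held 59.9% ± 3.3 and 62.0% ± 3.3 (SD, n = 3), with an exact permutation p of 0.5.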

How the data were processed

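The authors deposited 1 intensity per spot for each of 36 arrays, 18 per assay and nothing else. They also deposited a table with 1 signal per spot, time and measure, replicates combined. Per the series' design text, its synthesis rate is the nascent rate normalised to cell volume. Of the scanner, any background treatment and the table's scaling, nothing is given in the sources used here. Array numbers are those of the array files. The rule for members, the lists and the tests were chosen with earlier results of these data known.

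A 0 intensity counted as missing and the rest were taken to log2. Arrays of an assay were quantile normalised after the filter, and time was fitted as a factor with limma 3.58.1 in R 4.3.3. All limma p-values were adjusted by Benjamini-Hochberg over all spots, with a threshold of 0.05. The interaction used array weights estimated per assay. The named spots are, per direction, the 2 called spots of largest change whose 3 late arrays lay on 1 side of the 3 early ones. The gene lists and the strain check were not run, because no spot could be named. Simulated arrays held 200 changed spots, of 5145 fitted for 240 against 0 min. There the fit recovered 62% of the changes of 1 (log2) and 88% of those of 2, and 3.23% of its calls were false. The simulated noise was independent between arrays and equal in spread on all of them, with no printing-position effect. There were 100 changed spots at each size, with as many rises as falls, while the real arrays gave 38 rises and 4 falls. A larger number of changed spots loosens the Benjamini-Hochberg cutoff. These rates therefore hold for that setting and may not hold for the real arrays. The number of arrays limits the precision. Figures were drawn with matplotlib 3.10.9 in Python 3.11.15.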

Additional observations from a re-analysis of the deposited data

Results flagged for a closer look

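Of 6144 spots, 8 were listed at 0 on the 3 nascent arrays at 0 min and above 0 on the 3 at 240 min. These lay outside the comparison, and 0 spots showed the opposite. These 8 were among the dimmest on the array, where the median percentile of a spot over its 3 arrays at 240 min, among the spots above 0, was 0.306 to 2.93, and each was above 0 on 5 to 10 of the 12 arrays between 30 and 180 min. No fold is given for them. A further 14 spots were at 0 on the 3 arrays at 0 min and above 0 on 2 at 240 min. The opposite held at 6. Arrays at 240 min had a mean total intensity 2.06 times that at 0 min. They listed 915 to 961 spots at 0, against 958 to 992 at 0 min. Whether this bears on the 8 spots was not tested. The change differed between nascent transcription and mRNA at 2 spots in the interaction test (limma), with differences of 1.77 ± 0.26 (SE, log2, adjusted p = 0.000774) and -2.25 ± 0.30 (SE, log2, adjusted p = 0.00025). Groups of 3 arrays were too small for a test of single outlying arrays.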

How the results depend on the processing

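Of the 12 alternatives that left out no array, 8 moved the count of calls by no more than 1.5 times. The exceptions for 240 against 0 min, of 42 calls, were 72 with printing positions centred (60 rose, 12 fell), 0 with only the 6 arrays compared, 179 with array weights (122 and 57) and 144 with the replicate block (109 and 35). Leaving out 1 array gave 15 to 143 calls, 13 to 86 rising and 1 to 57 falling. Added after the data had been seen, centring positions without replicate 1 at 240 min gave 231.

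The file numbers paired the arrays only in part. Deviations of same-numbered arrays correlated at 0.35, -0.21 and 0.47 for numbers 1, 2 and 3, and only numbers 1 and 3 correlated best with their own. The crossed pairs of numbers 1 and 3 correlated at -0.46 and -0.51, and crossed pairs with number 2 at 0.02 to 0.16. Deviations of the 3 arrays of a time sum to 0 at each spot, so these correlations are not independent. A positive value for a same-numbered pair draws crossed values below 0. For other comparisons with the replicate block, mRNA calls went from 78 to 607 and interaction calls from 2 to 15. Scaling to a common median gave 131 mRNA and 5 interaction calls. Fitting only the arrays compared gave 0 for mRNA, for the interaction and for 240 against 120 min. Leaving out 1 array of 0 or 240 min gave 30 to 71 mRNA calls, 1 to 7 interaction calls, 0 to 1 calls against 120 min and 0 to 0 against 180 min. The arrays of 120 and 180 min were never left out, and those of 0 min do not enter these last contrasts. The share of risers called in mRNA, 37.8%, became 27.6%, 21.2% and 18.8% with risers chosen with positions centred, without replicate 1 at 240 min and with array weights. It became 40.5% (15 of 37) with positions centred in the mRNA fit instead. All of these settings were added after the data had been seen.

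The median ratio of synthesis rates, 0.571, was 0.942 with the volume factor, and the ratio of means was 0.584. The share of the brightest 10% at 240 minus 0 min turned from 2.08 to -1.24 percentage points with spots ranked by mRNA, that of the brightest 5% from 2.28 to -1.06 and that of the brightest 1% from 1.73 to -0.51. The share of the brightest 10% was 0.574 to 3.88 points higher without 1 array. For the brightest 5% this range was 0.412 to 4.06, and for the brightest 1% -0.242 to 3.67. With replicate 1 at 240 min left out, the differences were 0.698, 0.984 and 0.154 points for the brightest 10%, 5% and 1%. By level class, the median change went from 0.064 (dimmest, class 1) through 0.0306, -0.0320 and -0.0466 to -0.0841 (brightest, class 5) with classes by mRNA, and was 0.0224, 0.0143 and 0.0509 in classes 1, 4 and 5 with a common median. Causes were not tested. Fewer arrays in a fit leave fewer degrees of freedom. Dim spots had the largest standard errors, and no background value was given to subtract.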
